A study of Mus musculus with 9 samples.

Results

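The 7 genes described here encode chains of collagens that build the matrix around and between the banded collagen fibrils: the type VI chains Col6a1, Col6a2 and Col6a3, the type VIII chain Col8a1, and the fibril-associated chains Col12a1, Col14a1 and Col16a1. They were chosen by family and not by a cut on their values, though with earlier results of these data known. The table held 35024 gene names measured by RNA sequencing in mouse hepatic stellate cells, and 7 of 7 were found. All 7 lay above the lowest value of the table in every library and passed the filter for testing.

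The libraries labelled YAP-deleted (n = 4: LYT006, LYT008, LYT013 and LYT016) came from mice with a floxed Yap1 gene and Cre recombinase driven by the promoter of Lrat, a retinoid-storage enzyme gene active in stellate cells. The libraries labelled control (n = 5: LYT004, LYT005, LYT014, LYT015 and LYT017) came from mice with floxed Yap1 and no Cre, so an effect of Cre itself and the loss of Yap1 cannot be told apart. Both groups shared the C57BL/6J background and 6 injections of carbon tetrachloride (CCl4, a liver toxin) in corn oil, 3 days apart, with no uninjured animals among these samples and no ages given in the labels. Stellate cells were collected 2 days after the last injection by density centrifugation and flow sorting on retinoid autofluorescence, and were lysed directly, which selects cells that still hold vitamin A. The labels do not say that each library came from its own mouse. A p-value here therefore sets a difference only against the spread between libraries of a group, which may be technical.

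Type VI collagen is assembled inside the cell from one chain each of α1, α2 and α3, and is secreted as tetramers that join into beaded microfibrils close to the cell surface. Collagens XII, XIV and XVI have interrupted triple helices and, in the case of XII and XIV, lie on the surface of type I fibrils, where they bind small proteoglycans and other matrix proteins. Type VIII is a short-chain collagen that forms networks in vessel walls. Stellate cells are the main source of fibrillar collagen in the injured liver, and Yap1 encodes a transcriptional coactivator that works with TEAD factors.

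Depth, as counts recovered from the deposited values, was lowest in control LYT017 (14052502) and highest in LYT013 (31816055). Each library had 16282 to 17341 genes above that floor. Yap1, the targeted gene, had 642, 648 and 645 normalised counts in LYT006, LYT008 and LYT016, labelled YAP-deleted, and 2902, 2915, 3653 and 3551 in LYT004, LYT005, LYT015 and LYT017, labelled control. The remaining libraries contradicted their labels, with 2530 in LYT013, labelled YAP-deleted, and 618 in LYT014, labelled control. No label was changed, and the comparison of each member by label is given for 9 libraries as labelled and for the 7 without LYT013 and LYT014. Counts of genes below and above 0 in the related lists are given for both. Single genes of those lists are given for 9 libraries unless the 7 are named. LYT013 also stood apart in transcript length, with a slope of -0.43 log2 units per doubling of length against -0.02 to 0.12 in the other 8 libraries. Transcripts of 8 kb or more (562 genes) had a median deviation of -0.68 from their mean over the libraries in LYT013, against -0.15 to 0.18 elsewhere. Library codes fell into a low range (4 to 8, 4 libraries) and a high range (13 to 17, 5 libraries), and the sources used here do not give what the codes stand for.

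The defining genes of the sort were abundant in every library. Lrat had 52011, 47565, 35209 and 49699 normalised counts in LYT006, LYT008, LYT013 and LYT016, labelled YAP-deleted, and 44736, 69555, 54279, 44553 and 65124 in LYT004, LYT005, LYT014, LYT015 and LYT017, labelled control. Des, the muscle-type intermediate filament of stellate cells, had 5644 to 11983 normalised counts in libraries labelled YAP-deleted and 5239 to 6813 in those labelled control. The 12 stellate cell markers summed to 524730 to 757810 normalised counts in libraries labelled YAP-deleted and 444310 to 702620 in those labelled control. Those of other cells were far lower, for each list from the lowest to the highest library: 1043 to 2449 (YAP-deleted) and 706 to 1829 (control) for 12 macrophage markers, and 2351 to 5098 (YAP-deleted) and 1583 to 4744 (control) for 10 liver endothelial markers. Hepatocyte markers, 10 in all, summed to 3845 to 6069 in libraries labelled YAP-deleted and 3017 to 4838 in those labelled control. Mesothelial markers, 8 in all, summed to 214 to 1483 in libraries labelled YAP-deleted and 513 to 1416 in those labelled control. Single genes carried most of these last sums, Wt1 for the mesothelial list (206 to 1478 in libraries labelled YAP-deleted and 484 to 1415 in those labelled control) and Trf for the hepatocyte list (3060.3 to 5299 in libraries labelled YAP-deleted and 2074 to 3541 in those labelled control).

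Collagen XIV led the set by a wide margin and collagen XII closed it. Per kb of transcript, which allows genes to be compared, levels over the 9 libraries averaged 25032 ± 5344 normalised counts for Col14a1 and 7929 ± 1314 for Col6a1 (SD, n = 9). Col6a3 averaged 4372 ± 2047 and Col6a2 4025 ± 940 normalised counts per kb on the same footing. Below them came Col16a1 at 1464 ± 174, Col8a1 at 104 ± 48 and Col12a1 at 64.9 ± 70.4 normalised counts per kb (SD, n = 9). Col14a1 exceeded Col6a1, Col6a1 exceeded Col6a3, Col6a2 exceeded Col16a1, and Col16a1 exceeded Col8a1 in 9 of 9 libraries. Neighbours in the order that overlapped were Col6a3 and Col6a2, with Col6a3 higher in 6 of 9 libraries, and Col8a1 and Col12a1, with Col8a1 higher in 8 of 9. Among all genes of a library, not corrected for length, Col14a1 ranked 2nd to 8th by normalised count and Col12a1 anywhere between places 1244 and 10249.

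**Figure D1:**
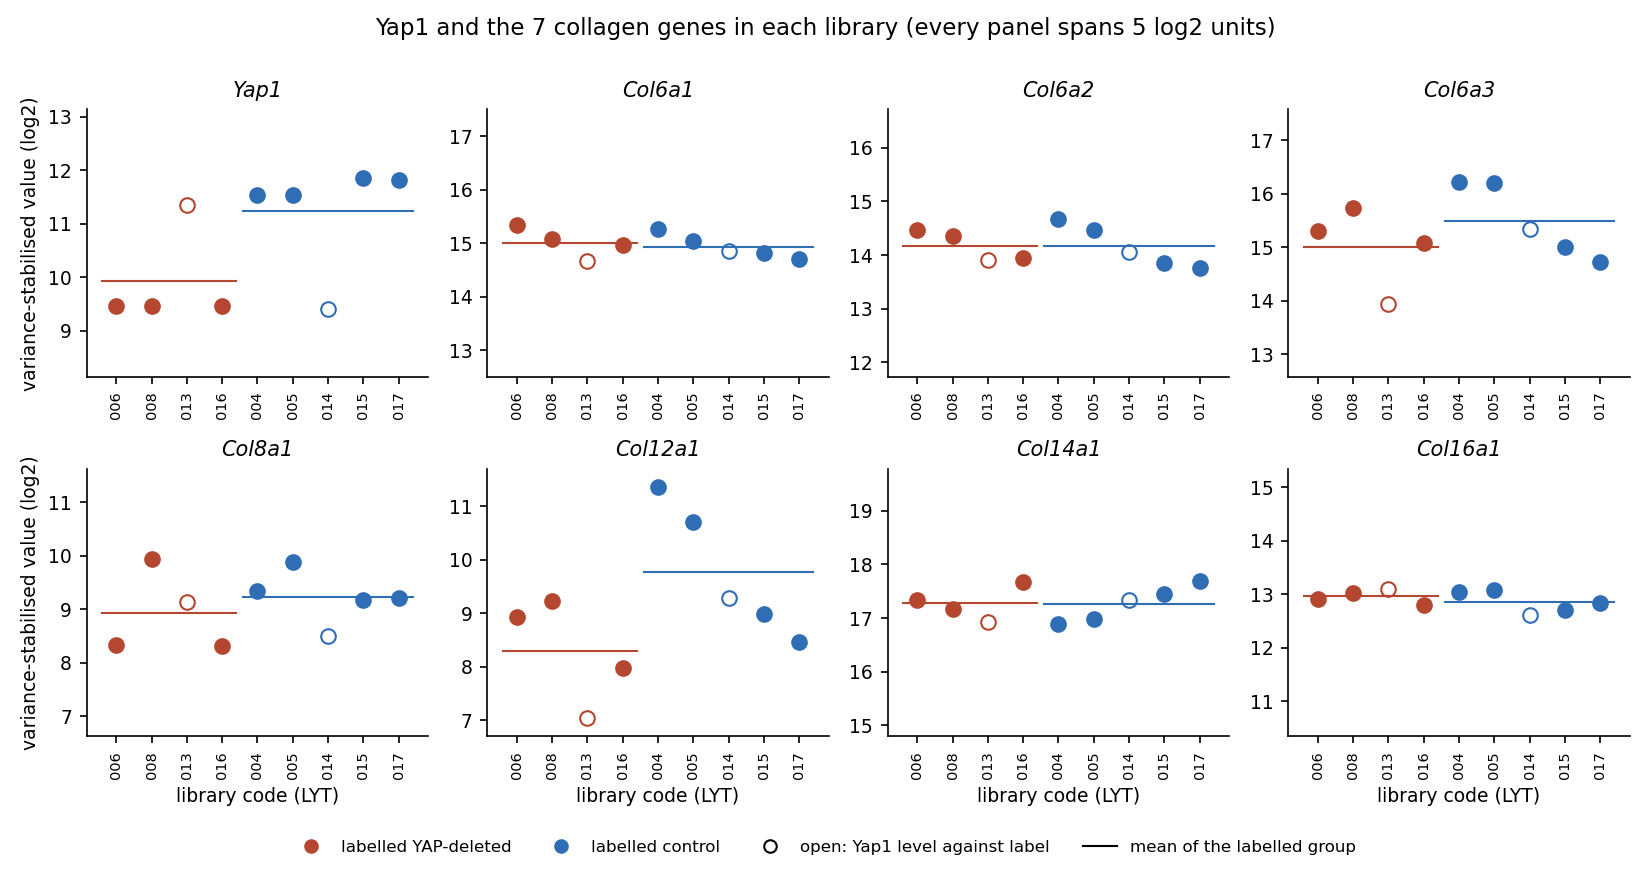
Deposited variance-stabilised value (log2) of Yap1 and the 7 collagen genes in each library, labelled YAP-deleted (red) left of labelled control (blue), with open circles for LYT013 and LYT014 and lines at the labelled group means; every panel spans the same number of log2 units. The groups overlap for all 7 collagen genes, and Col12a1 has the widest scatter.

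By label, none of the 7 genes passed the test. In limma's moderated test over 17203 genes, with Benjamini-Hochberg adjustment at 0.05, 0 of 7 members were called in 9 libraries, where 0% of genes were called higher and 0% lower in libraries labelled YAP-deleted. In the 7 libraries, 0 of 7 members were called, where 0.0183% of 16372 genes were called higher (3 genes) and 0.0489% lower (8 genes). The voom form of limma on the recovered counts called no member in either set of libraries, with adjusted p-values for Col12a1 of 0.601 (9 libraries) and 0.818 (7 libraries). At an unadjusted limma p under 0.05 in 9 libraries, 1 of 7 members was counted, Col12a1, where 7.22% of all genes were. In the 7 libraries 0 of 7 members were, where 6.41% of genes were. The labelled groups overlapped for 7 of 7 members in both sets of libraries. Groups without overlap were found for 2.84% of genes in 9 libraries (1.15% lower in libraries labelled YAP-deleted) and 7.59% in the 7 (3.66% lower). Differences of the members split 3 below 0 and 4 above 0, where 50.9% of tested genes lay below 0, and their median was 0.0001 on the log2 scale, beside -0.0045 for all tested genes. The split was again 3 and 4 in the 7 libraries, where 51.1% of genes lay below 0. Since these are bulk samples, fewer cells of a type and less RNA per cell cannot be told apart in any of the values.

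**Figure D2:**
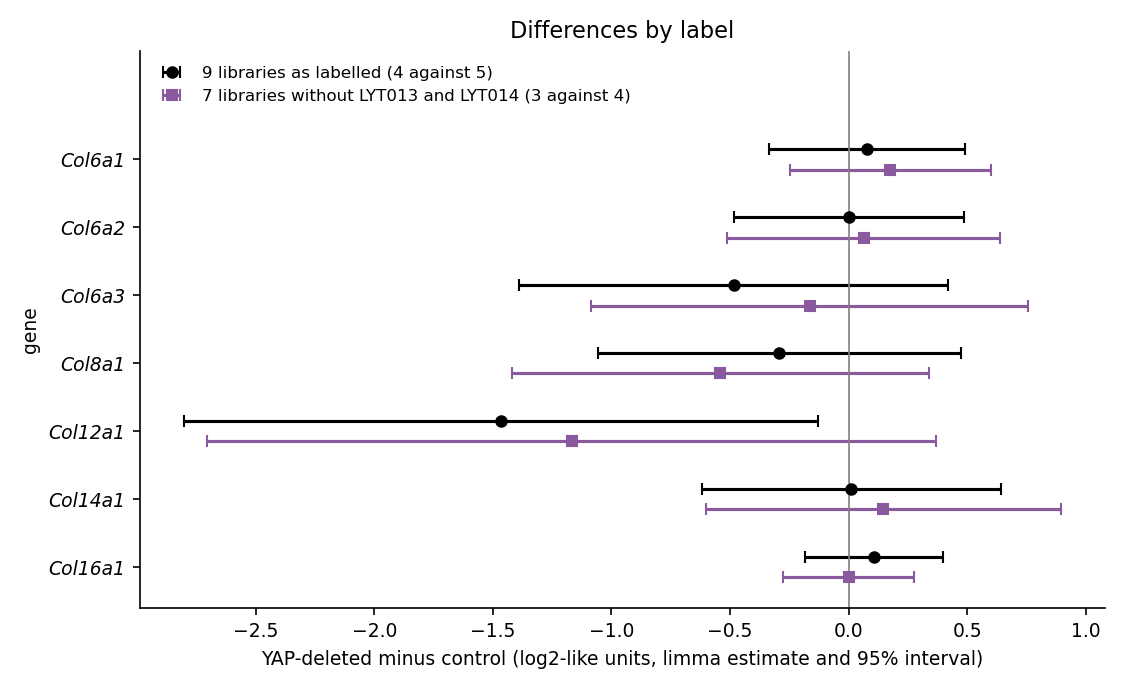
Difference in variance-stabilised value (YAP-deleted minus control, log2-like units) with its limma 95% interval for the 7 collagen genes, in 9 libraries as labelled (black) and in 7 without LYT013 and LYT014 (purple). All intervals include 0 but that of Col12a1 in 9 libraries, which runs from -2.80 to -0.13 before any adjustment for the number of genes.

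Each of the type VI chains α1 and α2 had similar mean levels in the labelled groups, and neither was called by limma. Col6a1 (ENSMUSG00000001119.7, chromosome 10, 76708792 to 76726168 on GRCm38, minus strand) encodes the α1 chain. It had 41441, 34643, 25891 and 32219 normalised counts in LYT006, LYT008, LYT013 and LYT016, labelled YAP-deleted, and 39447, 33631, 29704, 28881 and 26706 in LYT004, LYT005, LYT014, LYT015 and LYT017, labelled control. The groups overlapped over nearly their whole range, with LYT013 the lowest library and LYT006 the highest. The difference was 0.08 log2 units (SE 0.19, 95% interval -0.34 to 0.49, limma adjusted p = 0.900), and 0.17 in the 7 libraries (limma adjusted p = 0.922).

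Col6a2 (ENSMUSG00000020241.13, chromosome 10, 76595762 to 76623630, minus strand), the α2 chain, lies 85.2 kb from Col6a1 on the same strand. It had 22460, 20777, 15204 and 15788 normalised counts in LYT006, LYT008, LYT013 and LYT016, labelled YAP-deleted, and 26167, 22624, 17030, 14713 and 13805 in LYT004, LYT005, LYT014, LYT015 and LYT017, labelled control. In each group the libraries of low code stood above those of high code. The labelled groups had the same mean, 14.16 log2 units, with a 95% interval for the difference of -0.48 to 0.48 (limma adjusted p = 1.00), and differed by 0.06 in the 7 libraries (limma adjusted p = 0.979).

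Col6a3 (ENSMUSG00000048126.16, chromosome 1, 90765923 to 90843971, minus strand) encodes the large α3 chain, whose C-terminal end is released as the fragment endotrophin. It had 40527, 54287, 15580 and 34667 normalised counts in LYT006, LYT008, LYT013 and LYT016, labelled YAP-deleted, and 76254, 74889, 41392, 33001 and 27048 in LYT004, LYT005, LYT014, LYT015 and LYT017, labelled control. LYT004 and LYT005 were the highest and LYT013 the lowest, and the groups overlapped between 27048 and 54287. Means were 36265 ± 16056 normalised counts in libraries labelled YAP-deleted (SD, n = 4) and 50517 ± 23437 in those labelled control (SD, n = 5). On the log2 scale they differed by -0.48 (SE 0.41, 95% interval -1.39 to 0.42, limma adjusted p = 0.702). Without LYT013 the difference was -0.12, with limma's library weights it was -0.06, and in the 7 libraries it was -0.16 (limma adjusted p = 0.967). Its transcript, at 10.1 kb, is among the lengths that were low in LYT013, and with a smooth trend in length and GC content removed from each library the 9-library difference was -0.32.

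The 3 chains did not keep a fixed proportion to each other. Per kb, Col6a1 stood at 1.69 to 2.32 times Col6a2 over the 9 libraries. Col6a3 per kb was 0.537, 0.832, 0.322 and 0.610 of the mean of the other two chains in LYT006, LYT008, LYT013 and LYT016, labelled YAP-deleted, and 0.990, 1.13, 0.751, 0.640 and 0.565 of it in LYT004, LYT005, LYT014, LYT015 and LYT017, labelled control. The ratio was lowest in LYT013 and above 1 only in LYT005, with overlap between the labelled groups. LYT013 was also low for long transcripts, and Col6a3 has the longest of the 3. The part of length in this ratio was not tested. The 3 chains summed to 18945, 18286, 11124 and 14682 normalised counts per kb in LYT006, LYT008, LYT013 and LYT016, labelled YAP-deleted, and to 22791, 20475, 15001, 13472 and 12157 in LYT004, LYT005, LYT014, LYT015 and LYT017, labelled control. That sum was 18286 to 22791 in the 4 libraries of low code and 11124 to 15001 in the 5 of high code, with no overlap, whereas the labelled groups overlapped.

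**Figure D3:**
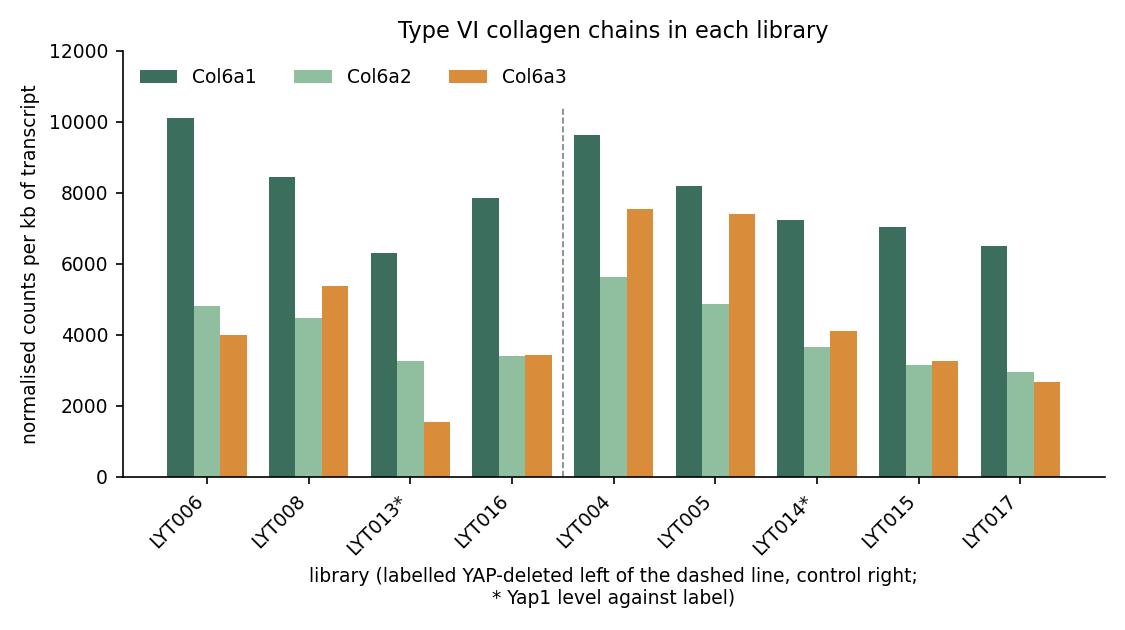
Normalised counts per kb of transcript for the 3 type VI chains in each library, labelled YAP-deleted left of the dashed line and labelled control right of it; asterisks mark LYT013 and LYT014. Col6a1 is highest in every library, and Col6a3 is above Col6a2 in 6 of 9.

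Centred on their means, Col6a1 and Col6a2 had the most alike profiles of any pair of members, with a root mean square difference of 0.15 log2 units over the 9 libraries. Col6a3 differed from Col6a2 by 0.46 and from Col12a1 by 0.65 on this measure, and the most unlike pair was Col12a1 and Col14a1 at 1.38. This distance grows with the spread of a gene, and Col6a3 spread more than the other chains: like Col6a2, it was highest in LYT004 and LYT005. Because the 3 chains form 1 protein and 2 of their genes are neighbours, the start regions of all 3 are given with their motifs (RefSeq, GRCm38.p6, from 250 bases before to 50 after the start, gene strand, 5′ to 3′). Capitals mark a TEAD core (GGAATG, or CATTCC on the other strand) or an AP-1 element (TGANTCA, its own reverse complement).
Col6a1, chr10:76725995-76726294, minus strand: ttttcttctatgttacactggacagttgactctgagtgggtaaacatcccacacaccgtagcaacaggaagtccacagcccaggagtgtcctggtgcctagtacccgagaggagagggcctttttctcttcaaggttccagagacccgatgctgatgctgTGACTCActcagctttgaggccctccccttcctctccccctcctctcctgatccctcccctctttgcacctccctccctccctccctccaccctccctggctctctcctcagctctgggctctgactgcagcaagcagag
Col6a2, chr10:76623355-76623654, minus strand: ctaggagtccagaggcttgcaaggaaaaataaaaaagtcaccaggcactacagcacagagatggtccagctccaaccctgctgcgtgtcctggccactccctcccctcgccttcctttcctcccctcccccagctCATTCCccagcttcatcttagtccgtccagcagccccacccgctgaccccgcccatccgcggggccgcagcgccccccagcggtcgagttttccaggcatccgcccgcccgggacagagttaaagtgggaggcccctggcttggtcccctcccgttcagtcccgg
Col6a3, chr1:90843922-90844221, minus strand: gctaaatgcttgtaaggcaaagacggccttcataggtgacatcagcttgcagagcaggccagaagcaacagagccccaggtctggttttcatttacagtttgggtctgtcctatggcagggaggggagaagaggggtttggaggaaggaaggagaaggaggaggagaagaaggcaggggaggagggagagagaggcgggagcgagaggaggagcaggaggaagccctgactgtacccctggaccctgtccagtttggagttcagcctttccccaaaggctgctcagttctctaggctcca
Col6a1 held 1 AP-1 element 90 bases before the RefSeq start, in a stretch that GENCODE places inside the first exon, since its start lies upstream. Col6a2 held 1 TEAD core 115 bases before the start, on the other strand. That core lies downstream of a second annotated Col6a2 start, which is also where GENCODE begins the gene. The window of this second start held neither motif. Col6a3, Col8a1 and Col16a1 held neither motif. On either strand, 14.66% of 32851 promoter windows of the same length held the TEAD core and 7.81% the AP-1 element. RefSeq windows matched 5 of the 7 members, and Col12a1 and Col14a1 are named only.

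Col8a1 (ENSMUSG00000068196.5, chromosome 16, 57624258 to 57754737, minus strand), a type VIII chain, was low and uneven. It had 264, 921, 503 and 259 normalised counts in LYT006, LYT008, LYT013 and LYT016, labelled YAP-deleted, and 589, 884, 304, 515 and 535 in LYT004, LYT005, LYT014, LYT015 and LYT017, labelled control. LYT008, labelled YAP-deleted, was the highest of all 9 and 2 others of its group were the lowest, so the control values all lay inside the range of the other group. The difference was -0.29 log2 units (SE 0.35, 95% interval -1.06 to 0.47, limma adjusted p = 0.776). In the 7 libraries it was -0.54 (95% interval -1.42 to 0.34, limma adjusted p = 0.861). Its partner chain Col8a2 was lower still, at 14.4 to 71.5 normalised counts in libraries labelled YAP-deleted and 8.06 to 84.2 in those labelled control.

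Col12a1 (ENSMUSG00000032332.17, chromosome 9, 79598991 to 79718831, minus strand) encodes collagen XII, a homotrimer on the surface of type I collagen fibrils, and had the largest difference of the set. It had 430.15, 539.6, 77.8 and 194 normalised counts in LYT006, LYT008, LYT013 and LYT016, labelled YAP-deleted, and 2562, 1610.4, 567, 450.4 and 295 in LYT004, LYT005, LYT014, LYT015 and LYT017, labelled control. LYT004 and LYT005 stood above the other 7 libraries and LYT013 and LYT016 below them, and the groups overlapped between 295 and 539.6. Means were 310 ± 212 normalised counts in libraries labelled YAP-deleted (SD, n = 4) and 1097 ± 968 in those labelled control (SD, n = 5), a ratio of 0.283. The difference of -1.47 log2 units (SE 0.61, 95% interval -2.80 to -0.13) had a limma p of 0.0345 and an adjusted p of 0.649, and did not pass the test. In the 7 libraries it was -1.17 (SE 0.67, 95% interval -2.70 to 0.37, limma adjusted p = 0.820). With weights for each library estimated by limma the differences were -0.84 (9 libraries) and -0.69 (7 libraries).

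Of the 7 genes, Col12a1 also varied most between libraries. Its highest library was 32.9 times its lowest, and the SD of its log2 value over the 9 libraries, 1.30, was larger than that of 99.7% of 8603 genes at or above the median level, for which the median SD was 0.228. Col6a3 spanned 4.89-fold (SD larger than that of 98.3% of these genes) and Col8a1 3.56-fold (97.0%). The other 4 members spanned 1.40-fold (Col16a1, 30.2%) to 1.90-fold (Col6a2, 76.8%). At 11.5 kb, the Col12a1 transcript is the longest of the set, and its 9-library difference was -1.05 without LYT013 and -1.18 with the length and GC trend removed. The part of transcript length in the Col12a1 and Col6a3 values was not tested beyond these 2 fits.

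Part of the spread followed the library codes. In a model with label and code range together, codes 4 to 8 stood above codes 13 to 17 by 1.86 ± 0.24 log2 units for Col12a1 (SE, limma adjusted p = 0.0196), 1 of 7 members called, where 0.477% of genes were called higher and 0.151% lower. Mean log2 values of Col12a1 were 10.06 ± 1.16 in codes 4 to 8 (SD, n = 4) and 8.36 ± 0.89 in codes 13 to 17 (SD, n = 5). This call was lost without LYT008, LYT004, LYT005, LYT015 or LYT017, each left out alone, with limma adjusted p-values from 0.0553 to 0.110 and differences of 1.66 to 1.94. Col6a3 differed by 1.10 ± 0.24 (SE, limma adjusted p = 0.0669) and Col6a2 by 0.59 ± 0.13 (SE, limma adjusted p = 0.0666), neither of them called. In the 7 libraries without LYT013 and LYT014, Col12a1, Col6a3 and Col6a2 were called higher in codes 4 to 8 (limma adjusted p = 0.0129, 0.0346 and 0.0199), 3 of 7 members, but there 4.68% of genes were called higher and 3.21% lower. For Col6a1 (0.37 ± 0.14, limma adjusted p = 0.213) and Col6a2 the ranges did not overlap, where 2.99% of genes were higher and 2.92% lower without overlap. Col14a1 had the opposite sign, -0.33 ± 0.24 (SE, limma adjusted p = 0.537). Code range was tested after the values had been seen.

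Within each code range, Col12a1 was lower in every library labelled YAP-deleted than in every library labelled control. In codes 4 to 8, LYT006 and LYT008 had 430.15 and 539.6 normalised counts, against 2562 and 1610.4 in control LYT004 and LYT005. In codes 13 to 17, LYT013 and LYT016 had 77.8 and 194, against 567, 450.4 and 295 in LYT014, LYT015 and LYT017, labelled control. In codes 4 to 8 the labels and the measured Yap1 level gave the same split, and in codes 13 to 17 they did not. There LYT014, with 618 normalised Yap1 counts, had the highest Col12a1 value, and LYT013, with 2530, the lowest. LYT013 was also low for long transcripts, of which Col12a1 is one. The part of the Yap1 level in the Col12a1 order was not tested. The difference was -1.95 ± 0.23 log2 units in codes 4 to 8 (SE, limma adjusted p = 0.177) and -1.40 ± 0.34 in codes 13 to 17 (SE, limma adjusted p = 0.692), and -1.65 ± 0.24 with code range as a covariate (SE, limma adjusted p = 0.373). In the 7 libraries the covariate gave -1.47 ± 0.27 (SE, limma adjusted p = 0.116). Col12a1 was 1 of 7 members below control in both ranges without overlap, and no member was above it in both, where 3.9% of genes were below and 4.31% above. Col6a3 differed by -0.69 in codes 4 to 8 and -0.52 in codes 13 to 17, with overlap in the higher codes.

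**Figure D4:**
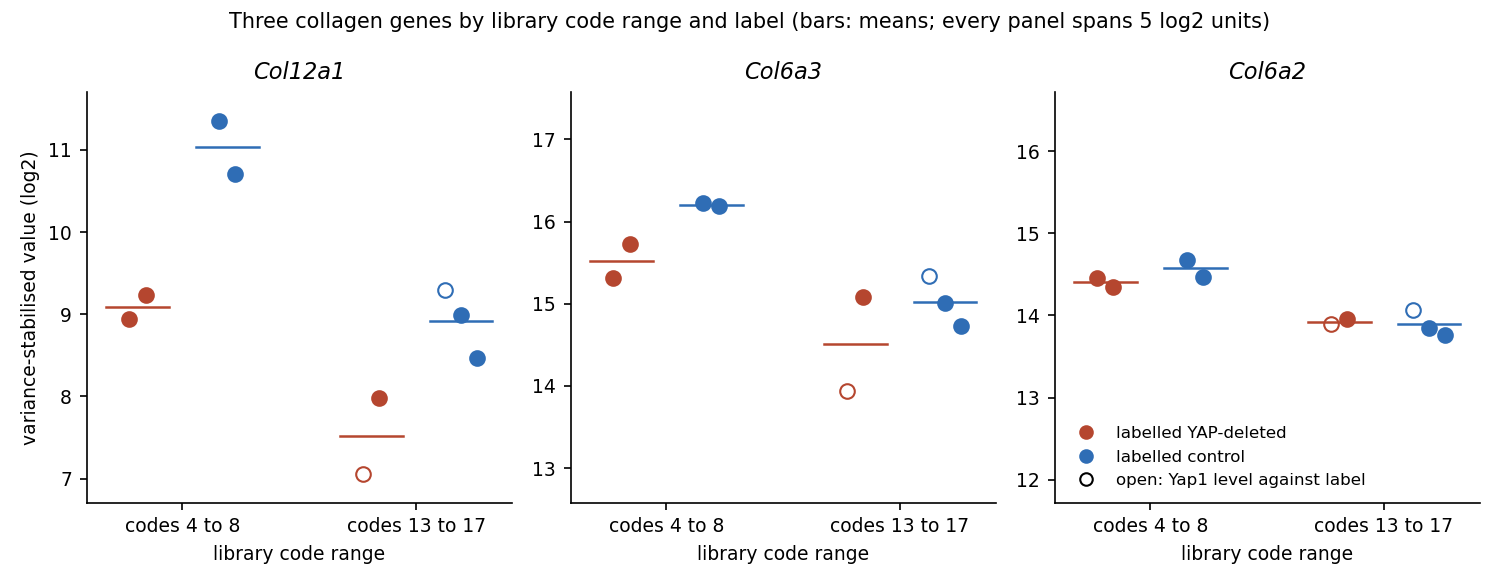
Variance-stabilised value (log2) of Col12a1, Col6a3 and Col6a2 by library code range, with labelled YAP-deleted (red) left of labelled control (blue) in each range; open circles are LYT013 and LYT014 and lines are means. Col12a1 in libraries labelled YAP-deleted lies below control in both ranges, by 1.95 and 1.40 on average, and Col6a2 separates the ranges but not the labels.

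Cell cycle genes were uneven between libraries, and none of the 18 listed was called by limma in 9 or 7 libraries, or had an unadjusted p under 0.05. All 18 differences lay below 0 in both sets of libraries, where 50.9% (9 libraries) and 51.1% (7 libraries) of all genes did. Their median was -0.83 in 9 libraries and -0.56 in the 7. The 18 cell cycle genes summed to 2761, 20417, 3478 and 2501 normalised counts in LYT006, LYT008, LYT013 and LYT016, labelled YAP-deleted, and 22452, 30426, 8045, 2655 and 2463 in LYT004, LYT005, LYT014, LYT015 and LYT017, labelled control. Mki67, a marker of cycling cells, had 160.3, 3643, 68.2 and 122 normalised counts in LYT006, LYT008, LYT013 and LYT016, labelled YAP-deleted, and 4991, 6434, 1351, 219 and 121 in LYT004, LYT005, LYT014, LYT015 and LYT017, labelled control. LYT004, LYT005, LYT008 and LYT014 were the 4 highest libraries for this sum and also for Col6a3. LYT013, the lowest library for Col6a3 and Col12a1, was above LYT006, LYT016, LYT015 and LYT017 for this sum. Pcna made up 1666 of its 3478, and for Mki67 (68.2) and Top2a (86.8) LYT013 was the lowest of the 9 libraries. By the mean log2 value of the list LYT013 was at 7.03. That was below LYT006 (7.27) and LYT015 (7.17) and above LYT016 (6.99) and LYT017 (7.02). With the mean of the cell cycle list as a covariate, Col12a1 differed by -0.93 ± 0.36 (SE, limma adjusted p = 0.638) and Col6a3 by -0.14 in 9 libraries, and by -0.82 and 0.04 in the 7. This covariate was added after the values had been seen, and the part of cycling cells in the collagen values was not tested otherwise.

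Markers of other fibrogenic cells were set beside these values. The 12 portal fibroblast markers summed to 8181 to 15845 normalised counts in libraries labelled YAP-deleted and 8457 to 17687 in those labelled control. By code the same sums were 15098 to 17687 in codes 4 to 8 and 8181 to 11549 in codes 13 to 17, without overlap. Macrophage marker sums also split by code without overlap, the other way, at 706 to 1082 in codes 4 to 8 and 1499 to 2449 in codes 13 to 17. Of all tested genes, 2.99% were higher and 2.92% lower in codes 4 to 8 without overlap. Eln was the largest part of the portal fibroblast sum in every library. It had 5624 to 6686 normalised counts in codes 4 to 8 and 2678 to 4414 in codes 13 to 17. Dpt and Cd34 also split this way, and Pi16 (0 to 12.1) split the other way. The rest of the list overlapped between the ranges, Thy1, Entpd2, Gas1 and Cd248 among them. All 12 were above 0 in at least 1 library, and their part in the collagen values was not tested. Vascular smooth muscle markers, of which Rergl was at 0 in every library, summed to 27981 to 29362 in libraries labelled YAP-deleted and 29594 to 33838 in those labelled control. These sums did not overlap between the labelled groups, a split found for 1.15% of single genes in this direction. Mylk and Des carried most of that sum, and in LYT013 Mylk was at its lowest (10438) and Des, also a stellate cell marker, at its highest (11983). None of the 9 tested genes of this list was called by limma in either set. An unadjusted p under 0.05 was found for 2 of them in 9 libraries, where 7.22% of all genes had one. In the 7 libraries it was found for 4, where 6.41% of genes had one. The part of these markers in the collagen values was not tested. The 8 myofibroblast activation genes summed to 8277 to 35179 in libraries labelled YAP-deleted and 15612 to 31822 in those labelled control. Acta2, smooth muscle actin, had 498, 2181, 2799 and 430.5 normalised counts in LYT006, LYT008, LYT013 and LYT016, labelled YAP-deleted, and 4414, 4900, 1781, 789 and 1679 in LYT004, LYT005, LYT014, LYT015 and LYT017, labelled control.

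Col14a1 (ENSMUSG00000022371.16, chromosome 15, 55307750 to 55520803, plus strand) encodes collagen XIV, which binds decorin on fibrils. It had 165760, 148100, 124480 and 209760 normalised counts in LYT006, LYT008, LYT013 and LYT016, labelled YAP-deleted, and 121100, 128660, 165250, 179180 and 212420 in LYT004, LYT005, LYT014, LYT015 and LYT017, labelled control. The 3 lowest libraries for Col14a1 were LYT004, LYT013 and LYT005, of which LYT004 and LYT005 were the highest for Col12a1 and LYT013 the lowest. The labelled groups differed by 0.01 log2 units (SE 0.29, 95% interval -0.62 to 0.64, limma adjusted p = 0.993) and by 0.15 in the 7 libraries (limma adjusted p = 0.964). The ratio of Col14a1 to Col12a1 per kb ran from 489 to 2853 in libraries labelled YAP-deleted and from 84.3 to 1282 in those labelled control. It was highest in LYT013, which was low for long transcripts, and the Col12a1 transcript is the longer of the pair.

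Col16a1 (ENSMUSG00000040690.15, chromosome 4, 130047840 to 130099283, plus strand), the collagen XVI chain, was the steadiest member. It had 7639, 8302, 8641 and 7069 normalised counts in LYT006, LYT008, LYT013 and LYT016, labelled YAP-deleted, and 8364, 8576, 6162, 6640 and 7198 in LYT004, LYT005, LYT014, LYT015 and LYT017, labelled control. The groups overlapped, and LYT014 was the lowest library. The difference was 0.11 log2 units (SE 0.13, 95% interval -0.19 to 0.40, limma adjusted p = 0.786), and in the 7 libraries 0.00 (95% interval -0.28 to 0.28, limma adjusted p = 1.00).

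The genes whose centred profiles lay closest to each member were sought among 8602 genes at or above the median level, over the 9 libraries, by root mean square difference. Nearest to Col12a1 were Fmod (0.26 log2 units), the keratan sulphate proteoglycan fibromodulin, Ltbp2 (0.39), a latent TGF-β binding protein relative, and Lox (0.39), the collagen crosslinking oxidase. Nearest to Col6a3 were Mmp19 (0.18), Ttf2 (0.19) and Dcx (0.20), and to Col8a1 Neurl1b (0.23), Cd248 (0.26) and Rtn4rl2 (0.28). Col6a1 lay closest to Evc (0.07), Sidt2 (0.08) and Gata6 (0.08), and Col6a2 to Foxp4 (0.10), the membrane collagenase gene Mmp14 (0.10) and Cryz (0.11). Bmp5 (0.08), Rgl1 (0.09) and Gid4 (0.10) were nearest to Col14a1, and Gdi2 (0.04), Ap1m1 (0.05) and Hadha (0.06) to Col16a1. A small distance is easier to reach for a member that varies little, so distances are not comparable between members.

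Other chains of the same families were scarce. Of 12, 11 were in the table, 3 (Col10a1, Col9a1 and Col19a1) were at 0 in every library, and 8 were tested, 6 below 0 and 2 above, with a median difference of -0.13. In the 7 libraries 5 lay below 0 and 3 above, with a median of -0.01. None was called by limma in either set, and none had an unadjusted p under 0.05. In 9 libraries the 2 with the smallest p below 0 were Col9a2 (-0.21) and Col6a6, a chain that can take the place of α3 in type VI (-0.29). Above 0 they were Col20a1 (0.12) and Col22a1 (0.01). Col6a6 had 11.4 to 145 normalised counts in libraries labelled YAP-deleted and 36.9 to 259.9 in those labelled control.

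The fibrillar collagens, on which the fibril-associated chains sit, gave 10 tested genes, 8 below 0 and 2 above, with a median difference of -0.19. In the 7 libraries 7 lay below 0 and 3 above, with a median of -0.14. None was called by limma in 9 or 7 libraries, and none had an unadjusted p under 0.05 in either. In 9 libraries the type I chains Col1a1 and Col1a2 differed by -0.76 and -0.53 (limma adjusted p = 0.7015 and 0.6863). Col1a1 had 168120 and 159390 normalised counts in LYT004 and LYT005, labelled control, and 21307 to 89565 in the other libraries. Col5a2, a chain of the minor fibrillar collagen V, differed by -0.48 and Col11a1 by -0.20, while Col27a1 and Col5a3 differed by 0.04 and 0.02 (limma adjusted p of at least 0.653 for each). Col11a1 was near the floor, at 0 to 4.81 normalised counts. Col5a2 had 10022 to 20293 normalised counts in libraries labelled YAP-deleted and 12258 to 28936 in those labelled control.

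Of the receptors for these collagens, 10 were tested and none was called by limma in 9 or 7 libraries. The differences of 9 were below 0 and of 1 above in both sets of libraries, where 50.9% (9 libraries) and 51.1% (7 libraries) of all genes were below, with a median of -0.20 in 9 libraries and -0.19 in the 7. An unadjusted p under 0.05 was found for 2 of them in 9 libraries, Itga1 and Itga2, where 7.22% of all genes had one. For the 7 it was found for another gene alone, Itga10, where 6.41% had one. Itga1, the α1 integrin subunit that binds collagen, had 14263, 13772, 12741 and 19401 normalised counts in LYT006, LYT008, LYT013 and LYT016, labelled YAP-deleted, and 18252, 18297, 17518, 20163 and 23156 in LYT004, LYT005, LYT014, LYT015 and LYT017, labelled control. LYT016 alone of its group reached into the control range. Its difference was -0.38 ± 0.16 (SE, limma adjusted p = 0.649). Itga2, the α2 integrin subunit, differed by -0.66 ± 0.26 (SE, limma adjusted p = 0.649), with 39.2 to 103 normalised counts in libraries labelled YAP-deleted and 57.8 to 199 in those labelled control. Cspg4, the NG2 proteoglycan that binds type VI collagen, differed by 0.02.

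Among 12 matrix partners, 9 were tested, 6 below 0 and 3 above in 9 libraries, with a median of -0.07. In the 7 libraries 4 lay below 0 and 5 above, with a median of 0.05. None was called by limma in either set. In 9 libraries 1, Fmod, had an unadjusted p under 0.05, where 7.22% of all genes had one. In the 7 libraries 0 had one, where 6.41% of all genes did. Fmod, the gene closest to Col12a1, had 214.5, 444, 80.2 and 102 normalised counts in LYT006, LYT008, LYT013 and LYT016, labelled YAP-deleted, and 1507, 1280.5, 335, 305 and 180.0 in LYT004, LYT005, LYT014, LYT015 and LYT017, labelled control. Its difference was -1.34 ± 0.58 (SE, limma adjusted p = 0.649), with the groups overlapping. Fn1, fibronectin, differed by -0.47 ± 0.23 (SE, limma adjusted p = 0.649), Emilin1 by 0.21 and Dcn, decorin, by 0.16. The 6 processing enzymes and collagenases gave 2 below 0 and 4 above in 9 libraries, with a median of 0.06. In the 7 libraries they gave 3 below 0 and 3 above, with a median of -0.01. In both sets none was called by limma or had an unadjusted p under 0.05. Voom on the recovered counts called 0 genes in the whole 9-library table. Tll1 differed by -0.11 and the procollagen C-proteinase gene Bmp1 by 0.00, and above 0 were Mmp2, a gelatinase gene, by 0.21 and Pcolce2 by 0.09.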

How the data were processed

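The authors deposited a variance-stabilised table on a log2-like scale, with 1 value for each gene name in each library, with a lowest value of 4.96. The sources used here do not give how it was made. The tools in the submitters' processing notes are bcl2fastq 2.20, kallisto 0.44.0 and sleuth, with the builds GRCm38, mm10 and GRCh38 named without roles. Per the labels, both a poly-A and a ribosomal depletion preparation were described, and which one each library received is not given. The column for LYT013 was headed LYT013.1, and every other header equalled its library code.

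Inverting the inverse hyperbolic sine form of the values gave whole counts within 0.1 for 100.0% of values above the lowest. Normalised counts are these divided by the size factor of the library. Because the deposited unit was log2-like, limma 3.58.1 in R 4.3.3 was used (linear model on group, mean-variance trend, two-sided, Benjamini-Hochberg at 0.05 over all genes with 4 or more libraries above the lowest value), and differences understate the change of genes with few counts. The procedure was tested on simulated data. Positions and the longest coding transcripts came from GENCODE M21 (GRCm38). Intervals cover 95% and come from limma.

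The members and gene lists were chosen with earlier results of these data known. From each related list, up to 2 genes per direction with the smallest 9-library p were named, with any gene past the threshold, and the 3 nearest profiles per member. Col1a1 and Col1a2 were named as well. Alternatives changed filters, scaling, transformation, moderation, library weights and covariates, and left out each library in turn. The length and GC trend, the cell cycle covariate and the code range comparison were chosen after seeing the data.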

Additional observations from a re-analysis of the deposited data

How the results depend on the processing

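Col12a1 and Col8a1 kept a difference below 0 under every alternative run for 9 and 7 libraries, as did Col6a3 for 9 libraries. Col14a1 and Col6a1 kept a difference above 0 for 7. Sizes moved more: with library weights Col12a1 was -0.84 (9 libraries) and -0.69 (7), Col6a3 -0.06 (9), and Col6a1 0.25 (9) and 0.29 (7), and with the cell cycle covariate Col12a1 was -0.93, Col6a3 -0.14 and Col8a1 -0.06 (9). The trend removed gave -0.15 for Col8a1 and -0.32 for Col6a3 (9). With 9 libraries, Col6a1 became -0.0139 with quantile scaling; Col6a2 -0.0865 with quantile scaling, -0.0179 with voom, -0.0589 with code range as a covariate, -0.171 in codes 4 to 8 and -0.0258 with the length and GC trend removed; Col14a1 -0.0315 with quantile scaling, -0.012 with voom, -0.192 in codes 13 to 17 and -0.114 with the cell cycle covariate; and Col16a1 -0.0881 in codes 4 to 8. With 7 libraries, Col6a2 became -0.0439 with code range and -0.0199 with the trend removed, Col6a3 0.0634 with library weights and 0.043 with the cell cycle covariate, and Col16a1 -0.028, -0.017, -0.0402 and -0.148 with quantile scaling, voom, code range and the trend removed. The cause of these sign changes in small differences was not tested.

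The number of genes past the threshold with 9 libraries was 0, against 4 in codes 4 to 8 alone (2 higher, 2 lower) and 11 in the 7 libraries (3 higher, 8 lower). With 7 libraries it was 25 with code range (7 higher, 18 lower) and 36 with the cell cycle covariate (11 higher, 25 lower). Between code ranges 108 genes passed, against 1291 without LYT013 and LYT014 and 300 with the trend removed.

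Leaving out each library in turn, the 9-library count stayed at 0, the 7-library count ran from 2 to 10 and the code range count from 2 to 725. The 9-library differences then ran from -1.79 to -1.05 for Col12a1, -0.72 to -0.12 for Col6a3, -0.63 to -0.09 for Col8a1, -0.0318 to 0.194 for Col6a1, -0.10 to 0.13 for Col6a2, -0.12 to 0.13 for Col14a1 and 0.04 to 0.16 for Col16a1. The 7-library differences ran from -1.64 to -0.68 for Col12a1, -0.435 to 0.0632 for Col6a3, -1.08 to -0.27 for Col8a1, 0.07 to 0.28 for Col6a1, -0.0803 to 0.226 for Col6a2, 0.01 to 0.29 for Col14a1 and -0.0674 to 0.0571 for Col16a1. No paired analysis was possible because the labelled groups share no library code. Col12a1 had 130 recovered counts in its lowest library, which limits its precision there.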

Other observations

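Tnc, the matrix glycoprotein tenascin-C, was the 1 member of the myofibroblast activation list past the threshold in the 7 libraries, and is given here as it was reached through that list. It had 3169, 3856, 4014 and 3174.5 normalised counts in LYT006, LYT008, LYT013 and LYT016, labelled YAP-deleted, and 7713, 7798, 4629, 6672 and 7025 in LYT004, LYT005, LYT014, LYT015 and LYT017, labelled control. The labelled groups did not overlap, which held for 1.15% of genes in this direction. The difference was -1.09 ± 0.11 log2 units in the 7 libraries (SE, limma adjusted p = 0.0111) and -0.90 ± 0.16 in 9 (SE, limma adjusted p = 0.649). None of the 8 genes of that list was called in 9 libraries. In both sets of libraries 7 of the 8 lay below 0, where 50.9% (9 libraries) and 51.1% (7 libraries) of all genes did.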
